A study of Mus musculus with 12 samples.

Results

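The 9 genes described here (Ccr2, Cx3cr1, Csf1r, Ly6c2, Fcgr1, Itgam, Adgre1, Lyz2 and Cd68) are widely used to recognise monocytes and macrophages in the mouse. The list was set by symbol alone, with earlier results of these data known, and all 9 were found among the 56748 Ensembl identifiers of the count files and were among the 18438 genes with enough counts to be tested. Their levels were followed in donor-derived Lin−Sca+Kit+ cells of mouse bone marrow (BM), a fraction that holds haemopoietic stem cells and early progenitors, by bulk RNA-seq of 12 libraries. The comparison asked how these cells differ once the leukaemic kinase BCR::ABL1 is switched on.

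All 12 libraries came from B6.SJL (CD45.1) recipients aged 8 to 12 weeks that received 2 irradiation doses of 4.25 Gy and CD45.2 BM cells of SCLtTA/BCR-ABL (DTG) mice. The methods of the study describe these donor cells as a frozen pool of BM from DTG mice of both sexes, given to recipients of both sexes. In these donor cells the SCL promoter drives a tetracycline-controlled activator, so that human BCR::ABL1 is expressed in stem and progenitor cells when tetracycline (TET) is absent. Every recipient drank TET for the first 2 weeks after transplant. In the CML 2wk group (BCR::ABL1+, here CML, n = 6) TET was then withdrawn for 2 weeks, and in the CTRL group (BCR::ABL1−, n = 6) it was continued, so that the control cells carried the same 2 transgenes. The CTRL samples are labelled male and the CML samples female, and the effect of sex cannot be told apart from that of BCR::ABL1. Recipients still have host haemopoietic and stromal cells, and only the sort for CD45.2 separates donor from host. The labels do not name the animal behind each library, and the p-values measure the spread between these 12 samples and not between donor animals.

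Monocytes are born in the BM from granulocyte-monocyte progenitors, and most markers of the lineage appear stepwise. Classical, inflammatory monocytes carry high Ly6C and CCR2, and use CCR2 to follow the chemokine CCL2 out of the BM. Patrolling monocytes carry little Ly6C and much CX3CR1, the receptor of the membrane-bound chemokine CX3CL1. CSF1R, the receptor of CSF1 and IL-34, keeps monocytes and macrophages alive, while F4/80 (the product of Adgre1), CD68, CD64 (Fcgr1), CD11b (Itgam) and lysozyme (Lyz2) mark the mature cells. Several of these genes are also active at a low level in early progenitors or in granulocytes.

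The promoters of the 3 genes that rose and of the one that fell are printed here, because these are the members whose transcripts differed between the groups, together with that of Ly6c1, the near copy of Ly6c2. They run from 250 bases before to 50 bases after the first RefSeq start listed, on the gene's strand in 5′ to 3′ direction, on GRCm38.p6. The positions are chr9:124101933-124102232 on the plus strand for Ccr2, chr15:75111922-75112221 on the minus strand for Ly6c2, chr15:75048788-75049087 on the minus strand for Ly6c1, chr3:96293920-96294219 on the minus strand for Fcgr1 and chr9:120068247-120068546 on the minus strand for Cx3cr1. Capitals mark matches, on either strand, to GAGGAA (the core bound by PU.1), GAAANNGAA (part of the site bound by IRF factors) and TTGNGNAA (a form of the site bound by C/EBP factors).
Ccr2: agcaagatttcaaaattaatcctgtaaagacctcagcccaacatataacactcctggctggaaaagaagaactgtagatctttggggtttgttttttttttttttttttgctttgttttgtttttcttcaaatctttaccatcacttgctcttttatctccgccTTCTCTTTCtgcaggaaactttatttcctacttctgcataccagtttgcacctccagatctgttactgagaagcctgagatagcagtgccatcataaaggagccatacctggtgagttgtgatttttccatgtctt
Ly6c2: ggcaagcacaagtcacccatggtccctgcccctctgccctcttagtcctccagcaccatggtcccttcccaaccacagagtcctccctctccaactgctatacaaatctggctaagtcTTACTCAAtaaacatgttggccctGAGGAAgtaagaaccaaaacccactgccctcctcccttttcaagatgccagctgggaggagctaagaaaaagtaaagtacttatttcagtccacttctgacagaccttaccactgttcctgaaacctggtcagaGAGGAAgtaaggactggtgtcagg
Ly6c1: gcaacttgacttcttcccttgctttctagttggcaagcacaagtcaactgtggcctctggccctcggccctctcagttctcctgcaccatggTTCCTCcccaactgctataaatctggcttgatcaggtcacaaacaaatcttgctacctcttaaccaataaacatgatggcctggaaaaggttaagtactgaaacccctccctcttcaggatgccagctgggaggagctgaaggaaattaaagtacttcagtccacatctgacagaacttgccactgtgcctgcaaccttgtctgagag
Fcgr1: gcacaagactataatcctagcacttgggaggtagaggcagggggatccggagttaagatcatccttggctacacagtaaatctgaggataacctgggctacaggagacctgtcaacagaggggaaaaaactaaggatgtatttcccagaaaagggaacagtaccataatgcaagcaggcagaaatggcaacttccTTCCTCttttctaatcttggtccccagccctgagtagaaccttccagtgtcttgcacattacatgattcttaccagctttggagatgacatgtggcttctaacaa
Cx3cr1: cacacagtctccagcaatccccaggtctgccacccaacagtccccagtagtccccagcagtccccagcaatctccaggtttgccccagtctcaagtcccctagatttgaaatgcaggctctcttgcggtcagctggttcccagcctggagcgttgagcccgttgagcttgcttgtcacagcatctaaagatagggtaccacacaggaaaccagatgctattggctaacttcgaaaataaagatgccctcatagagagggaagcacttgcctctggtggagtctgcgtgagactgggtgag
In the Ly6c2 promoter, PU.1 matches began at positions −108 and 26 from the start and a C/EBP match at −132. Ly6c1 held 1 PU.1 match at −158, Fcgr1 1 PU.1 match at −55, and Ccr2 1 IRF match at −86, while none of the 3 motifs occurred in the Cx3cr1 window. Another RefSeq start of Ly6c1, not printed here, has PU.1 matches at −127 and 13 in its own window. The number of matches counted for Ly6c1 therefore depends on the start chosen. For Ly6c2, each of the 2 RefSeq starts held 2 PU.1 matches and 1 C/EBP match. Of 32544 mouse promoters of the same length, 28.1% held the PU.1 motif, 8.53% the IRF motif and 13.3% the C/EBP motif. A PU.1 match is thus common, and C/EBP and IRF matches are less so. The promoters of Ly6c2 and Ly6c1 could be aligned over 260 bases, of which 214 (82.3%) were identical, with 80 gap positions. Promoters were at hand for 7 of the 9 genes, and no binding was measured in this study.

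Library depth was 22804754 to 41832868 counts in CTRL and 16150817 to 25070105 in CML, and 3 counts correspond to 0.0725 to 0.184 CPM (counts scaled to one fixed total per library, with TMM factors). The lowest of the 9 genes, Fcgr1, had 12 counts or more in every library. This floor covers counting error only, while the intervals of fold changes given later come from the fit and include the spread between libraries. Mitochondrial transcripts took 0.816 to 1.29% of counts in CTRL and 2.26 to 2.97% in CML. The genes of the sort were present in all libraries, with Kit at 749 ± 45.5 CPM in CTRL and 412 ± 71.1 in CML, Ly6a (Sca-1) at 34.4 ± 4.08 and 44.8 ± 15.2, and Ptprc (CD45) at 456 ± 12.5 and 549 ± 52.6 (mean ± SD, n = 6 each). Some libraries stood apart from the rest of their group. The 14 stromal genes summed to 3196 CPM in CML library 2 and 705 in CML library 4, against 134 to 207 in the other CML libraries and 225 to 267 in CTRL. The 11 neutrophil genes summed to 2627 CPM in CTRL library 4, against 126 to 553 in the other CTRL libraries and 107 to 476 in CML. Results that rest on these libraries are therefore given with and without them. In bulk RNA a change in the number of cells that express a gene cannot be told apart from a change in its level per cell.

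Ccr2, Ly6c2 and Fcgr1 were higher in CML, Cx3cr1 was lower, and Csf1r, Itgam, Lyz2, Cd68 and Adgre1 did not pass the test. Of all genes tested, 59.5% were called at an adjusted p under 0.05 (edgeR quasi-likelihood test), 30.6% higher and 29.0% lower, so that 3 of 9 higher and 1 of 9 lower is close to or below the general level and is not itself a result about these genes. The median log2 fold change of the 9 genes was 0.14 and that of all genes tested was 0.07. Without CML libraries 2 and 4, 3 of the 9 genes were higher and 3 were lower. That fit also called more genes in general, 6069 higher and 6061 lower against 5637 and 5339 with all 12 libraries. The values of each gene in each library are described in turn, beginning with the chemokine and growth factor receptors.

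**Figure D1:**
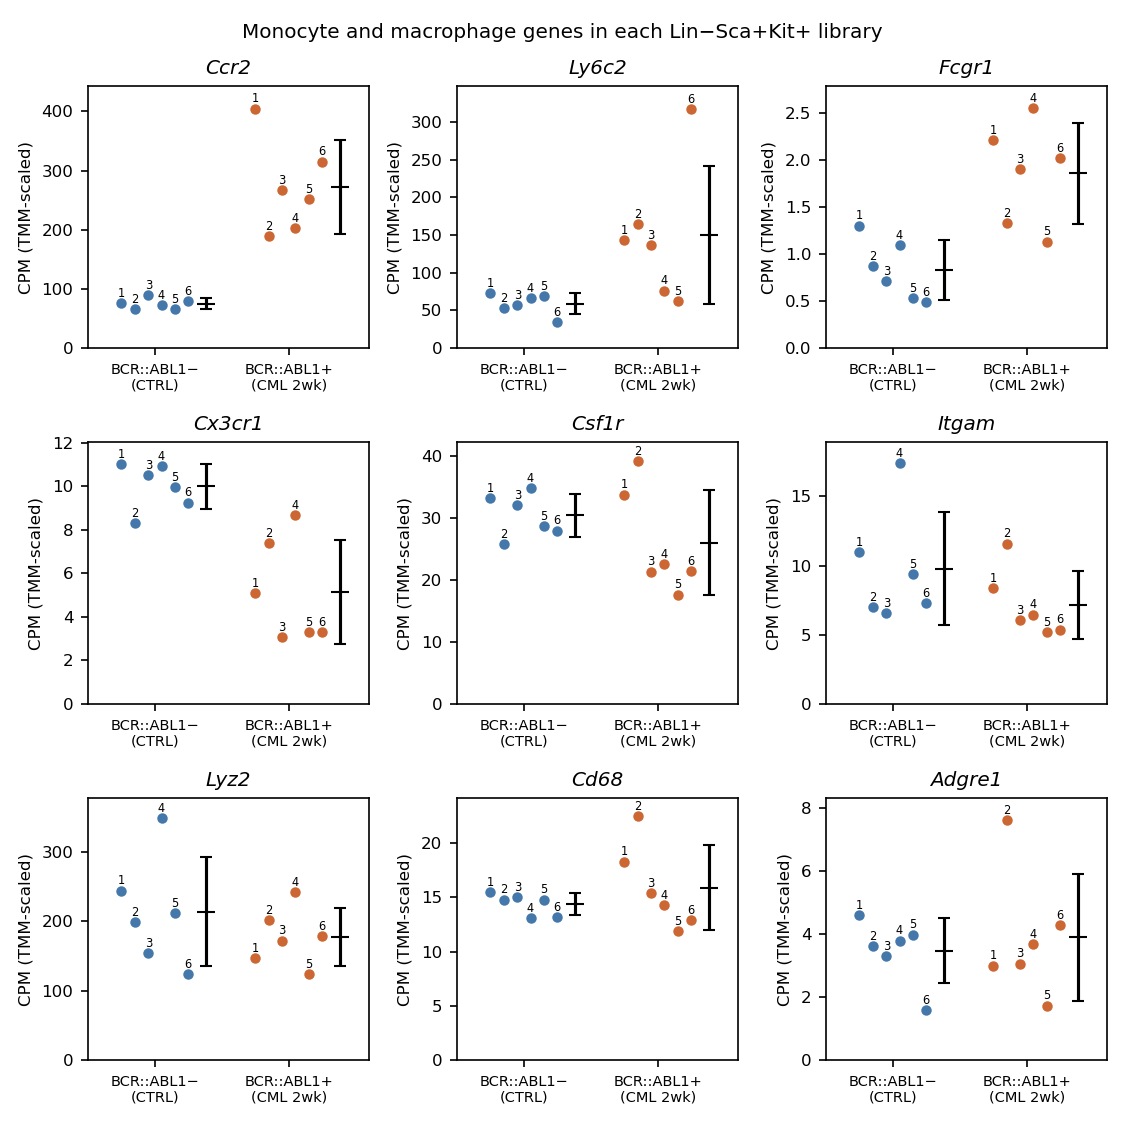
TMM-scaled CPM of the 9 genes in each library, with the CTRL (BCR::ABL1−) libraries in blue and the CML (BCR::ABL1+) libraries in orange, numbered by replicate and with the mean and SD of 6 libraries beside them. The groups are fully separated for Ccr2 alone (65.2 to 89.5 against 189 to 405 CPM), while CML library 2 is the highest of its group for Csf1r, Cd68, Adgre1 and Itgam.

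Ccr2, the receptor that draws classical monocytes towards CCL2, showed the largest change among the 9 genes. In CTRL its level was 65.2 CPM in the lowest library, 73.9 at the median and 89.5 in the highest, and in CML it was 189, 259.6 and 405. The lowest CML library (library 2) was still above the highest CTRL library (library 3), and Ccr2 was the only one of the 9 genes whose groups did not overlap, whereas 37.6% of all genes tested were separated in this way, 17.0% higher in CML and 20.6% lower. This amounted to a log2 fold change of 1.86 ± 0.162 (SE; 95% interval 1.52 to 2.21), a 3.64-fold rise, with an adjusted p of 3.28e-07. Under 21 other ways of scaling, testing or choosing libraries it stayed between 1.71 and 2.04. About 1.91% of the 50-base stretches of Ccr2 transcripts also occur in other genes.

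Cx3cr1, the fractalkine receptor of patrolling monocytes and many resident macrophages, went the other way. Its CTRL level was 8.29 CPM at the lowest, 10.2 at the median and 11.0 at the highest, and its CML level was 3.06, 4.20 and 8.68. The groups met in a single pair of libraries, CML library 4 (8.68 CPM) lying just above CTRL library 2 (8.29 CPM). Its log2 fold change was −0.96 ± 0.245 (SE; 95% interval −1.48 to −0.43), 1.94-fold lower, with an adjusted p of 0.00371. CML libraries 2 and 4, the ones with the most stromal transcripts, were also the ones with the most Cx3cr1 in that group (7.40 and 8.68 CPM against 3.06 to 5.10). When both were left out the log2 fold change was −1.45, with an adjusted p of 3.14e-06, and the part played by other cells in these libraries was not tested.

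Csf1r, the receptor for CSF1 and IL-34 on the whole monocyte and macrophage lineage, did not pass the test. Levels in CTRL were 25.7 CPM at the lowest, 30.4 at the median and 34.8 at the highest, and 17.6, 21.9 and 39.1 in CML. Within CML, libraries 1 (33.7 CPM) and 2 (39.1 CPM) lay in the upper part of the CTRL range or above it, and the other 4 libraries (17.6 to 22.5 CPM) lay below every CTRL library. Over all 12 libraries the log2 fold change was −0.23 ± 0.171 (95% interval −0.59 to 0.14), with an adjusted p of 0.261. Without CML library 2 it was −0.40 and passed the test (adjusted p = 0.0210), and without CML libraries 2 and 4 it was −0.38 (adjusted p = 0.0368). In the annotation used here 15.1% of the exonic bases of Csf1r overlap Hmgxb3 on the opposite strand, and the strand setting of the counting is not given in the sources used here.

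Ly6c2 encodes the surface protein Ly6C, whose level separates classical from patrolling monocytes. Its levels in CTRL were 34.8 CPM at the lowest, 61.8 at the median and 72.7 at the highest, and in CML 62.1, 140.4 and 317. CML library 5 (62.1 CPM) lay within the CTRL range and library 4 (76.3 CPM) just above it, while libraries 1, 2 and 3 held 137 to 164 CPM and library 6 alone 317. A log2 fold change of 1.35 ± 0.321 (SE; 95% interval 0.66 to 2.03), a 2.54-fold rise, was fitted, with an adjusted p of 0.00222. The libraries numbered 6 were the lowest in CTRL and the highest in CML, and without both of them the log2 fold change was 0.88 (adjusted p = 0.00615). A share of 13.9% of the 50-base stretches of Ly6c2 is found in Ly6c1 as well, so that reads could be split between these genes. Ly6c1 itself had 0.0377 to 0.193 CPM in CTRL and 0.0375 to 0.345 in CML, apart from 9.28 CPM in CML library 2.

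Fcgr1 encodes CD64, the high-affinity receptor for IgG on monocytes and macrophages. It was the least abundant of the 9 genes, with 0.491 CPM in the lowest CTRL library, 0.791 at the median and 1.30 in the highest, and 1.13, 1.96 and 2.55 CPM in CML. These levels rest on 12 to 53 counts per library in CTRL and 30 to 47 in CML. CML library 5 (1.13 CPM) fell below CTRL library 1 (1.30 CPM), and CML library 2 (1.33 CPM) lay just above it. Fitted over all libraries, the log2 fold change was 1.12 ± 0.287 (SE; 95% interval 0.51 to 1.74), a 2.18-fold rise, with an adjusted p of 0.00364. It stayed between 0.99 and 1.30 under the 21 alternatives and passed the test in each.

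Itgam encodes CD11b, the integrin chain of monocytes, macrophages and granulocytes, and its antibody was one of those with which the study followed myeloid cells. CTRL levels were 6.58 CPM at the lowest, 8.33 at the median and 17.4 at the highest, and CML levels 5.18, 6.26 and 11.6. The highest library of each group was the one with other cell markers, CTRL library 4 (17.4 CPM) with its neutrophil transcripts and CML library 2 (11.6 CPM) with its stromal transcripts. The log2 fold change was −0.45 ± 0.260 (95% interval −1.01 to 0.11), with an adjusted p of 0.150. Leaving out CTRL library 4 gave −0.21 (adjusted p = 0.448), leaving out CML library 2 gave −0.65 (adjusted p = 0.0268), and leaving out CML libraries 2 and 4 gave −0.67 (adjusted p = 0.0381), and the part of neutrophil and stromal transcripts in these values was not tested. The Itgam values are uncertain for another reason: the gene model Gm49368, on the same strand, covers 68.7% of its exonic bases and received 0 to 2 counts per CTRL library and 0 in each CML library, and how reads in the shared exons were assigned is not given in the sources used here.

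Adgre1 encodes F4/80, the classic marker of mature mouse macrophages. In CTRL it ranged from 1.58 CPM through a median of 3.70 to 4.60, and in CML from 1.73 through 3.38 to 7.62. The highest value belonged to CML library 2 and the lowest of each group to CTRL library 6 and CML library 5. With a log2 fold change of 0.16 ± 0.315 (95% interval −0.51 to 0.84) and an adjusted p of 0.673 no difference could be called, and the sign turned to −0.16 without CML library 2. The 18 resident macrophage genes summed to 311 CPM in that library, against 63.6 to 168 in the other CML libraries and 150.5 to 218 in CTRL, and their part in the Adgre1 values was not tested.

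Lyz2, the lysozyme of monocytes, macrophages and neutrophils, was the most abundant of the 9 genes per length. CTRL levels were 124 CPM at the lowest, 205 at the median and 348 at the highest, and CML levels 124, 175 and 242. The ranges of the groups overlapped almost entirely, and the value of 348 CPM came from CTRL library 4, the one with the most neutrophil transcripts. The log2 fold change was −0.27 ± 0.215 (95% interval −0.73 to 0.19), with an adjusted p of 0.299, and without CTRL library 4 it was −0.08. Lyz1, which shares 15.4% of the 50-base stretches of Lyz2, had at most 0.822 CPM in any library.

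Cd68, a lysosomal membrane protein of macrophages, had the smallest spread in CTRL of the 9 genes (SD of log2 CPM 0.103). Its levels were 13.1 CPM at the lowest, 14.8 at the median and 15.5 at the highest in CTRL, and 11.9, 14.9 and 22.5 in CML. CML libraries 1 (18.3 CPM) and 2 (22.5 CPM) lay above CTRL, and CML libraries 5 (11.9 CPM) and 6 (12.9 CPM) lay below it. The log2 fold change was 0.14 ± 0.139 (95% interval −0.16 to 0.44), with an adjusted p of 0.393, and it stayed between 0.01 and 0.21 under the 21 alternatives.

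**Figure D2:**
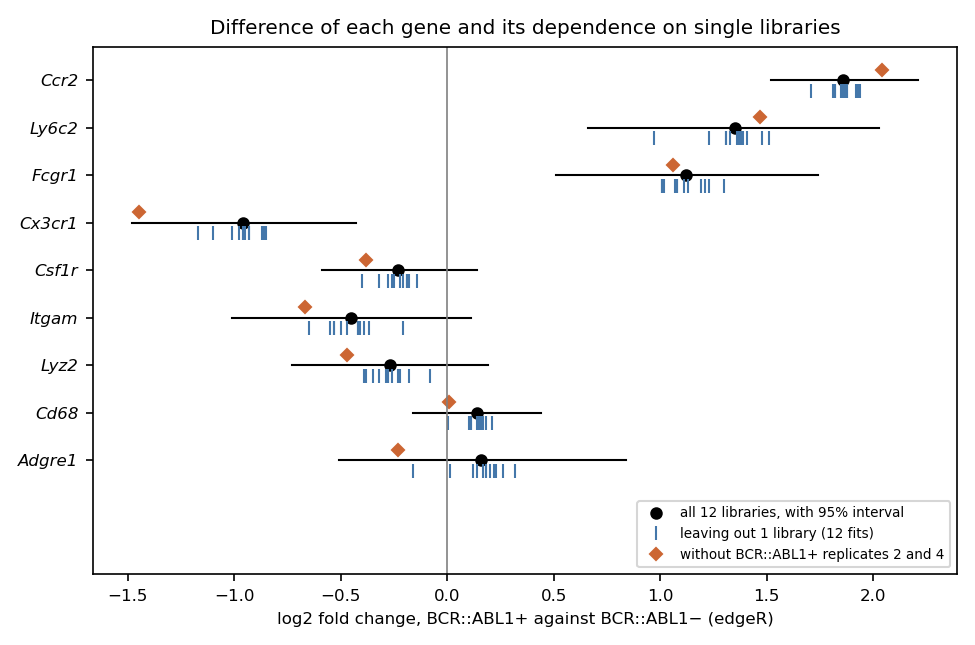
Log2 fold change of each gene in CML against CTRL (edgeR), with the 95% interval as a line, the 12 fits that leave out 1 library as ticks below it, and the fit without CML libraries 2 and 4 as a diamond above it. The intervals of Ccr2, Ly6c2 and Fcgr1 lie above 0 and that of Cx3cr1 lies below it, while for Adgre1 the fits fall on both sides of 0 (−0.23 to 0.32).

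Levels of different genes can be compared once they are divided by transcript length. As RPKM (TMM-scaled CPM divided by the exonic length in kilobases), Lyz2 led in CTRL with 162 ± 59.7, followed by Ly6c2 (21.5 ± 5.07), Cd68 (11.4 ± 0.805), Ccr2 (11.0 ± 1.35) and Csf1r (5.26 ± 0.599). Cx3cr1 (2.21 ± 0.233), Itgam (1.95 ± 0.815), Adgre1 (1.07 ± 0.317) and Fcgr1 (0.321 ± 0.123) made up the lower end (mean RPKM ± SD, n = 6). Neighbours in this order whose SD ranges overlapped were Cd68 and Ccr2, Cx3cr1 and Itgam, and Itgam and Adgre1. In CML the order began with Lyz2 (135 ± 31.6 RPKM), Ly6c2 (54.7 ± 33.2), Ccr2 (40.2 ± 11.8), Cd68 (12.6 ± 3.12) and Csf1r (4.49 ± 1.46). It ended with Itgam (1.43 ± 0.487), Adgre1 (1.20 ± 0.621), Cx3cr1 (1.14 ± 0.532) and Fcgr1 (0.717 ± 0.208). Here the SD ranges of Ly6c2 and Ccr2 overlapped, as did those of each neighbouring pair among the last 4 genes. Ccr2 thus stood beside Cd68 in CTRL and beside Ly6c2 in CML, and Cx3cr1 moved from above Itgam and Adgre1 to below them in mean RPKM, within their SD ranges. The place of Itgam is uncertain in both orders. Gm49368 shares 68.7% of its exonic bases, and how reads there were assigned is not given.

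The 9 genes did not rise and fall together from library to library. CML library 5 was the lowest of its group for 7 of the 9 genes, CML library 2 the highest for 4 and CML library 4 the highest for 3. In CTRL, library 1 was the highest for 5 genes and library 4 for 3, and library 6 was the lowest for 4. Within CTRL the SD of log2 CPM was 0.528 for Adgre1, 0.527 for Itgam, 0.518 for Lyz2 and 0.508 for Fcgr1, at the 95.6, 95.6, 95.3 and 94.9 percentile of all genes tested. It was smaller for Ly6c2 (0.390), Ccr2 (0.173), Csf1r (0.166), Cx3cr1 (0.156) and Cd68 (0.103), against a median of 0.144 over all genes tested. Within CML the largest SD of log2 CPM was that of Ly6c2 (0.838, percentile 88.0), followed by Adgre1 (0.688) and Cx3cr1 (0.642), with a median of 0.302 over all genes. The SD was larger in CML for 6 of the 9 genes and for 16888 of the 18438 genes tested, the exceptions among the 9 being Lyz2, Fcgr1 and Itgam.

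Ligands and signalling partners of the 9 genes were measured in the same libraries, and 2 of the 6 that could be tested were higher in CML, a share close to the 30.6% of all genes tested. Ccl2, the ligand of CCR2, had 0.122 to 0.453 CPM in CTRL and 1.10 to 5.73 in CML, a log2 fold change of 3.24 ± 0.424 (adjusted p = 1.30e-05). These levels rest on few reads, 5 to 12 counts per library in CTRL and 18 to 134 in CML. The groups did not overlap for Ccl2, as was so, higher in CML, for 17.0% of all genes tested. Tyrobp (DAP12), an adaptor of activating receptors on myeloid cells, rose from 35.4 ± 4.36 to 52.3 ± 11.5 CPM (log2 fold change 0.56, adjusted p = 0.00177). Fcer1g, the signalling chain on which CD64 depends, had 22.0 ± 2.25 and 25.0 ± 9.01 CPM, and its difference (0.18, adjusted p = 0.432) did not pass. Csf1 had 13.4 ± 0.694 CPM in CTRL and 15.3 ± 5.63 in CML (log2 fold change 0.19, adjusted p = 0.389), with its highest CML value of 24.7 CPM in library 2. Itgb2, the chain that pairs with CD11b, had 70.6 ± 10.0 and 58.5 ± 11.6 CPM (−0.27, adjusted p = 0.0689), and without CML library 2 its log2 fold change of −0.38 passed the test (adjusted p = 0.00638), as did that of −0.32 (adjusted p = 0.0493) without CML library 6. Cx3cl1, the ligand of CX3CR1, ranged from 1.69 to 2.77 CPM in CTRL and from 0.0987 to 1.41 in CML libraries other than library 2, which held 4.79 CPM. Its log2 fold change was −0.79 (adjusted p = 0.274) with all libraries and −1.97 (adjusted p = 5.67e-04) without CML library 2. Ligands and partners called lower were 0 with all 12 libraries. They were 2 with limma voom and sample quality weights, 2 without CML library 2, and 2 without CML libraries 2 and 4. Without the filter, with a replicate block and without CML library 6 the number was 1. Over all genes, 5339 were lower with all 12 libraries, and 5800, 5937 and 6061 in the fits that gave 2. Il34, Ccl7 and Ccl12 had too few counts to be tested.

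Relatives of the 9 genes were compared family by family. The activating and inhibitory Fc receptors for IgG were all higher in CML. Fcgr2b, the inhibitory receptor, had a log2 fold change of 2.09 ± 0.164 (adjusted p = 1.42e-07), Fcgr3 (CD16) one of 2.08 ± 0.227 (adjusted p = 2.40e-06) and Fcgr4 one of 1.47 ± 0.210 (adjusted p = 2.97e-05), beside 1.12 for Fcgr1. Fcgr3 went from 18.6 ± 3.44 to 78.7 ± 27.0 CPM and Fcgr2b from 25.9 ± 1.90 to 110.0 ± 32.9, which makes them far more abundant in reads than Fcgr1. The groups did not overlap for these 3 receptors, as was so, higher in CML, for 17.0% of all genes tested.

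Among the chemokine receptors, Ccr1, which is found on monocytes and other myeloid cells, went from 2.85 ± 1.48 to 38.9 ± 19.0 CPM (log2 fold change 3.74 ± 0.365, adjusted p = 8.33e-07). Its groups did not overlap, the highest CTRL library having 5.65 CPM and the lowest CML library 21.1, and 17.0% of all genes tested were separated upward in this way. Ccr1 and Ccr2 thus had positive fold changes and Cx3cr1 a negative one.

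Among the integrin chains, Itgal (CD11a) fell by 0.31 on the log2 scale (adjusted p = 0.00443), and Itgax (CD11c), a chain of dendritic cells and some macrophages, fell by 1.48 (adjusted p = 6.34e-05). Itgae (CD103) was higher by 1.23 (adjusted p = 0.00986), with 36.5 CPM in CML library 6 against 16.2 or less in the other CML libraries. Of the receptor kinases related to CSF1R, Kit fell from 749 ± 45.5 to 412 ± 71.1 CPM (−0.86 ± 0.101, adjusted p = 4.68e-06) and Flt3 from 426 ± 37.6 to 257 ± 79.1 CPM (−0.73 ± 0.158, adjusted p = 0.00111). Pdgfrb, a kinase of the same class that is counted here among the stromal genes, had 59.1 to 94.5 CPM in CTRL and 62.1 to 111 in CML (log2 fold change 0.03, adjusted p = 0.871) and did not pass the test.

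Of the adhesion receptors related to F4/80, Adgre4, a gene of patrolling monocytes and resident macrophages, fell from 1.98 ± 0.809 to 0.717 ± 0.444 CPM (−1.47 ± 0.433, adjusted p = 0.00887). Adgre5 (CD97) had 36.3 ± 3.26 and 36.7 ± 17.1 CPM, and its log2 fold change of 0.02 (adjusted p = 0.946) became −0.29 (adjusted p = 0.00911) without CML library 2, which alone held 71.0 CPM. The lysosomal membrane proteins related to CD68 were both called higher, Lamp2 by 1.26 ± 0.0940 (adjusted p = 9.68e-08) and Lamp1 by 0.27 ± 0.105 (adjusted p = 0.0355). The call for Lamp1 was lost under 12 of the 21 alternatives, among them leaving out any one of CTRL libraries 2, 3, 4 and 6 or CML libraries 1, 2 and 6. Over the 16 relatives, of which 14 could be tested, 8 were higher and 5 were lower, beside 30.6% higher and 29.0% lower among all genes tested. Their median log2 fold change was 0.75, against 0.07 over all genes tested.

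**Figure D3:**
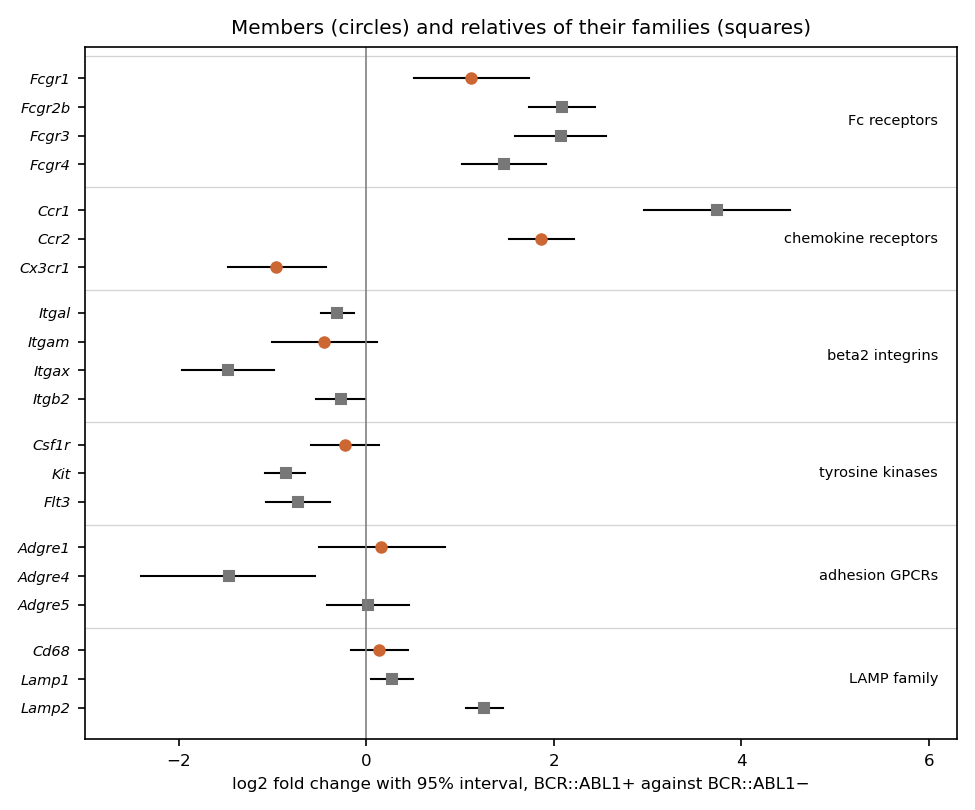
Log2 fold change in CML against CTRL (edgeR) with its 95% interval for members (orange circles) and for relatives and the partner Itgb2 (grey squares), grouped by family. All 4 Fc receptors and the receptors Ccr1 and Ccr2 lie above 0. Cx3cr1 (−0.96), Itgax (−1.48), Itgal (−0.31), Kit (−0.86), Flt3 (−0.73) and Adgre4 (−1.47) lie below it with their whole interval. The interval of Itgb2 (−0.54 to −0.01) also lies below 0, but its adjusted p of 0.0689 (edgeR) did not pass.

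Genes known for each stage of the lineage were counted next. The lists were chosen with earlier results of these data known, and their counts stand beside 30.6% higher and 29.0% lower among all genes. Of 18 classical monocyte genes, 12 were higher and 2 were lower, with a median log2 fold change of 1.07. Their summed level was 1389 to 1909.6 CPM in CTRL and 2648 to 4647 in CML, without overlap. Of single genes tested, 17.0% were separated upward in this way. Plac8, the most abundant of the 18 genes, rose from 397 ± 52.4 to 1559 ± 497 CPM (log2 fold change 1.97, adjusted p = 5.09e-07). This gene alone made up the largest part of the rise in the summed level. Cd14, the co-receptor for bacterial lipopolysaccharide, rose from 0.455 ± 0.163 to 2.92 ± 2.17 CPM (2.70, adjusted p = 3.99e-04). Vcan, which encodes a proteoglycan, was higher by 2.55 (adjusted p = 0.0145), but 54.4 CPM of it lay in CML library 2, and the difference was 0.70 (adjusted p = 0.128) without that library and 0.12 (adjusted p = 0.744) without CML libraries 2 and 4. The 2 genes that fell were Mpeg1, which encodes the pore-forming protein perforin-2 (−1.30, adjusted p = 0.00443), and the interferon-induced Ifi27l2a (−1.07, adjusted p = 2.99e-04).

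Patrolling monocyte genes went mostly the other way. Of 8 genes, 1 was higher and 6 were lower, with a median log2 fold change of −0.47. The one that rose was Fcgr4, given above with the Fc receptors. Treml4 fell by 2.12 on the log2 scale (adjusted p = 5.31e-04) and Cd36, a scavenger receptor that takes up fatty acids, fell by 1.58 (adjusted p = 0.0342), a call that was lost under 8 of the 21 alternatives, among them leaving out any one of CTRL libraries 1, 2 and 3 or CML libraries 1, 3, 4 and 5. Spn (CD43), which early progenitors also carry, had 632 ± 64.0 CPM in CTRL and 441 ± 81.7 in CML (−0.52, adjusted p = 0.00122) and made up most of the summed level of this list. The 1 list gene that is itself a relative of F4/80, Adgre4, is described above.

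Resident macrophage genes spanned a wide range of levels. Of 18 genes, 15 could be tested and 3 of those were lower, with a median log2 fold change of −0.25. Without CML library 2 it was 5 that were lower, and without CML libraries 2 and 4 it was 10. Over all genes, those called lower went from 5339 to 5937 and 6061 in the same fits. Cd5l, a secreted protein of tissue macrophages, fell by 1.87 (adjusted p = 0.0329, lost without any one of CTRL libraries 1, 2 and 5 or CML libraries 1, 4 and 6), and Spic, the factor of red pulp and BM macrophages that recycle iron, fell by 1.65 (adjusted p = 0.00753). Cd163, the remaining gene called lower, was more abundant and went from 43.0 ± 4.39 to 17.7 ± 5.48 CPM (−1.28, adjusted p = 1.17e-05). Apoe, the most abundant gene of the list, had 86.9 ± 7.01 CPM in CTRL and 53.9 ± 32.5 in CML (−0.69, adjusted p = 0.0615). The log2 fold change of Apoe passed the test without CML library 2 (−1.02, adjusted p = 0.00172), without CML library 4 (−0.82, adjusted p = 0.0382) and without both (−1.34, adjusted p = 1.56e-05). Marco was at 0 counts in all 6 CTRL libraries and at most at 0.299 CPM in CML, and Timd4 had at most 0.592 CPM.

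Of 10 transcription factors of the monocyte lineage, 2 were higher and 4 were lower, with a median log2 fold change of −0.01. Cebpb rose by 0.88 (adjusted p = 0.00215) and Cebpa by 0.51 (adjusted p = 0.00274), both of them factors that open the myeloid program. Klf4, which classical and patrolling monocytes need, fell by 1.72 (adjusted p = 7.75e-04), and Irf8, which directs progenitors to monocytes and dendritic cells, fell from 164 ± 25.6 to 59.3 ± 28.9 CPM (−1.47, adjusted p = 2.59e-04). Over these 4 lists together, 15 of 51 tested genes were higher, 15 were lower and the median was 0.16. Without CML libraries 2 and 4 the number lower was 23, while the number lower over all genes was 6061 against 5339.

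**Figure D4:**
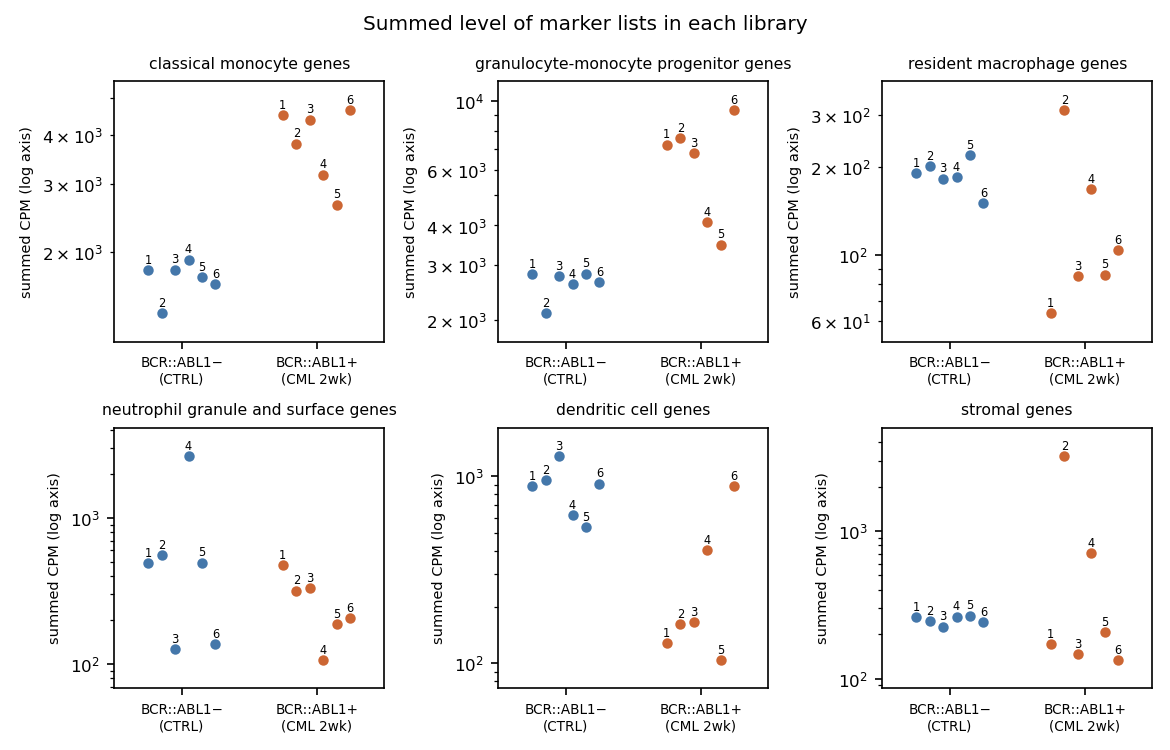
Summed TMM-scaled CPM of 6 gene lists in each library, on log axes, with CTRL in blue and CML in orange, numbered by replicate. The sums of classical monocyte and granulocyte-monocyte progenitor genes are separated between the groups, as were 17.0% of single genes tested, higher in CML. CTRL library 4 stands out for neutrophil genes (2627 CPM), and CML library 2 for stromal genes (3196 CPM) and resident macrophage genes (311 CPM).

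Genes of neighbouring cell types differed between the groups as well, and their part in the results above was not tested. Of 10 granulocyte-monocyte progenitor genes, 8 were higher (median 1.10), and their sum was 2095 to 2806 CPM in CTRL and 3474 to 9357 in CML. Ms4a3 rose by 3.30 (adjusted p = 2.77e-08), the protease gene Ctsg by 2.90 (adjusted p = 8.40e-08) and Mpo, the myeloperoxidase gene, from 1695 ± 205 to 2692 ± 1072 CPM (0.67, adjusted p = 0.0195, and 0.51 with an adjusted p of 0.0528 without CML library 6), while Csf3r, the G-CSF receptor, fell by 0.44 (adjusted p = 9.86e-04). CML libraries 5 and 4, the lowest for Ly6c2, were also the lowest for this sum (3474 and 4097 CPM), and CML library 6, the highest for Ly6c2, was the highest (9357 CPM).

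Of 11 neutrophil genes, 1 was higher and 5 were lower, with a median of −1.41. Cxcr2, a chemokine receptor of mature neutrophils, rose by 0.86 (adjusted p = 0.00598), and the granule genes Ngp (−2.94, adjusted p = 0.0162) and Camp (−2.87, adjusted p = 0.00721) fell, as did S100a9 (−1.91, adjusted p = 0.0226). Without CTRL library 4 the counts were 2 higher and 1 lower, and neither Ngp (−1.79, adjusted p = 0.0813) nor S100a9 (−0.92, adjusted p = 0.124) passed. The replicate block left 2 neutrophil genes lower and limma voom with sample quality weights left 0, and Camp passed under neither (adjusted p = 0.0601 and 0.225). Of 11 dendritic cell genes, 10 were lower (median −1.52), among them Cd74, which accompanies MHC class II (371 ± 116 CPM in CTRL and 129 ± 138 in CML, log2 fold change −1.52, adjusted p = 0.0184), Siglech of plasmacytoid cells (−3.05, adjusted p = 6.41e-04) and Cd209a (−2.29, adjusted p = 0.0117). CML library 6 stood apart with 394 CPM of Cd74, against 31.9 to 167 in the other CML libraries, and with a dendritic sum of 889 CPM, within the CTRL range of 536 to 1278. Without it the log2 fold change of Cd74 was −2.30 (adjusted p = 1.27e-04). Of 8 mast cell and basophil genes, 6 were higher (median 2.50), led by the protease genes Tpsb2 (7.53, adjusted p = 2.72e-06) and Cma1 (6.40, adjusted p = 3.63e-06).

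Lists further from the lineage were counted in the same way. Of 13 stem and progenitor genes, 2 were higher and 10 were lower, with a median log2 fold change of −0.73. Erythroid genes were lower in 8 of 10 cases (median −2.38) and B cell genes in 2 of 7. The B cell count was 0 without CTRL library 3, 1 without any one of CTRL libraries 1, 2, 4 and 5 or CML libraries 1, 3 and 5, 4 without CML library 4, and 5 without CML libraries 2 and 4. The 6 T and NK cell genes tested were higher in 2 cases and lower in 2, with 4 lower without CML library 6 and 1 higher without any one of CTRL libraries 2, 4 and 6 or CML libraries 1 and 2. Stromal genes turned with the libraries used: with all 12 libraries 4 of the 10 tested were called higher, and without CML libraries 2 and 4 it was 8 that were called lower. Without CML library 2 alone, 2 were higher and 1 was lower.

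Genes with the most similar pattern across the 12 libraries were found for each of the 9 genes, after the group means had been subtracted from log2 CPM. Libraries differ in depth and in the transcripts of other cell types, which bear on all genes of a library at once, and these values over 12 libraries are a description with no test. Each search ran over 13441 genes (13442 for Fcgr1), so that the values of r given are the highest picked from many. Ly6c2 went with Elane, the neutrophil elastase of promyelocytes (r = 0.96, rho = 0.87), and with Ifitm3 (r = 0.96, rho = 0.76). Adgre1 went with Vcam1 (r = 0.94, rho = 0.89), which BM macrophages and stromal cells carry, with Snx15 (r = 0.93, rho = 0.92) and with Ncam1 (r = 0.92, rho = 0.92). Csf1r went with Tlr7 (r = 0.96, rho = 0.92), a sensor of single-stranded RNA, with Pgd (r = 0.94, rho = 0.98) and with the lysosomal protease gene Ctsc (r = 0.93, rho = 0.89).

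Lyz2 was closest to Pilra (r = 0.89, rho = 0.90) and Cd300lf (r = 0.82, rho = 0.74), inhibitory receptors of myeloid cells. Itgam was closest to Rflnb (r = 0.93, rho = 0.85), Anxa1 (r = 0.89, rho = 0.83) and Ccr1 (r = 0.88, rho = 0.74). Ccr2 was closest to Gm1966 (r = 0.97, rho = 0.93), Cd68 to Pttg1 (r = 0.95, rho = 0.93), Cx3cr1 to St3gal5 (r = 0.92, rho = 0.82) and Fcgr1 to mt-Tc (r = 0.89, rho = 0.91). No gene was among the 3 closest of more than one of the 9.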

How the data were processed

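Bulk RNA-seq of 12 libraries (6 CTRL, 6 CML) was used, grouped by their titles. What the authors deposited is 1 table a library of unnormalised counts by Ensembl identifier. The submitters' processing notes name FastQC 0.11.9, fastp 0.23.2, STAR 2.7.10a, featureCounts 2.0.1, DESeq2 1.36.0 and the builds mm39 and GRCm39, whereas the methods of the study name Trim Galore!, HISAT2, featureCounts and a human build. Neither the annotation release nor how strand and multimapping reads were handled is given in the sources used here, so counts of overlapping genes and close copies are uncertain. Symbols, exon lengths and shared 50-base stretches came from GENCODE M21 (GRCm38) by identifier, with 52073 of 56748 identifiers matched. Promoters came from RefSeq (GRCm38.p6). Coordinates are printed for those promoters alone.

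Counts were fitted with edgeR 4.0.16 (TMM factors, filterByExpr, quasi-likelihood test) in R 4.3.3, with Benjamini-Hochberg adjustment over 18438 genes and a threshold of 0.05. SE is the log2 fold change divided by the square root of F. A count of 0 allows up to 3 counts. CPM are TMM-scaled. Log2 CPM for spread and likeness used a prior count of 2, and likeness was computed over genes with a mean log2 CPM of at least 1. Alternatives used DESeq2 1.42.0 and limma 3.58.1, other scalings, no filter, a replicate block and fewer libraries. The fit was tested on simulated data. Tables and plots used Python 3.11.15.

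The members, lists and tests were chosen with earlier results of these data known. Named were the 9 members, their ligands, partners and relatives, the sort markers, the 3 genes most like each member, and in every other list the most abundant gene and up to 2 called genes with the largest change each way. Cd163 was named besides, so that each resident macrophage gene called lower is given. Of the relatives, 1 gene is counted but not reported here. Hmgxb3 and Gm49368 were named for their overlap with members. Replicates 1 to 5 of each group bear consecutive library numbers that differ between the groups, and replicates numbered 6 stand outside both runs.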

Additional observations from a re-analysis of the deposited data

Results flagged for a closer look

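In 94 groups of 6 values (members, ligands, partners, relatives and list sums in each condition), 14 had a highest or lowest library that lay far from the others by Dixon's criterion, where chance gives about 4.70 (1 in 20). None of the 9 members was among them. CML library 2 accounted for 7 and CTRL library 4 for 3, and these libraries carry the values that stand beside Csf1r, Itgam, Adgre1 and Lyz2 in the results.

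In CML library 2 the ligands Il34 (2.78 CPM, next highest library 0.814), Ccl7 (2.31, next 0.271) and Cx3cl1 (4.79, next 1.41) stood out, as did Ly6c1 (9.28, next 0.345) and Adgre5 (71.0, next 34.4). The same library had the highest summed CPM of mast cell and basophil genes (2497, next 1022) and of stromal genes (3196, next 705). In CTRL library 4 the highest values were those of Itgb2 (90.4 CPM, next 70.4), Ccr1 (5.65, next 2.87) and the summed neutrophil genes (2627, next 553).

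The other 4 were Itgae in CML library 6 (36.5 CPM, next 16.2), the lowest sum of granulocyte-monocyte progenitor genes in CTRL library 2 (2095 CPM, next lowest 2604), and 2 genes near the detection floor, Lyz1 in CML library 4 (0.434 CPM, next 0.113) and Ccl12 in CTRL library 3 (0.0374 CPM, the others at 0). No explanation of these values was tested.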

How the results depend on the processing

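The 4 calls among the members (Ccr2, Ly6c2 and Fcgr1 higher, Cx3cr1 lower) held under all 21 alternatives. Upper-quartile scaling moved the median of all genes from 0.07 to 0.14, and gave 6352 genes higher and 4752 lower against 5637 and 5339.

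No pairing by replicate number was visible: deviations of same-numbered libraries correlated at −0.125 to 0.0679, none over 0.1, and 1 CTRL library correlated best with its own number. Whether same-numbered samples were handled together cannot be read from these values. A replicate block gave 4786 genes higher and 5189 lower, kept the 4 member calls, called Cx3cl1 (−1.55) and Apoe (−0.90) lower, dropped the calls for Lamp1, Vcan, Camp, S100a9, Klrb1c, Col3a1 and Sparc, left 0 stromal genes higher, and turned Adgre5 to −0.08.

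Members called lower were 2 with limma voom and sample quality weights, and 3 without CML libraries 2 and 4, against 1 in the report (1 to 3 when single libraries were left out). Csf1r was called at −0.37 with voom and −0.38 without CML libraries 2 and 4 (−0.40 to −0.14 over single libraries left out), and Itgam at −0.67 without CML libraries 2 and 4 (−0.65 to −0.21). Adgre1 reversed to −0.15 with voom, −0.0080 without the libraries numbered 6 of both groups, −0.23 without CML libraries 2 and 4 and −0.16 without CML library 2 (−0.16 to 0.32 over single libraries left out). The 4 monocyte and macrophage lists had 23 genes lower without CML libraries 2 and 4, against 15, and all genes called lower were 6061 against 5339.

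Reversals among other genes were Csf1 (−0.19 without CML libraries 2 and 4, −0.011 without CML library 2, −0.011 to 0.28 over single libraries left out), Fcer1g (−0.0044 with voom), Col3a1 and Sparc (−3.15 and −0.10 without CML libraries 2 and 4), Pdgfrb (−0.06 with voom, −0.045 without the filter, −0.08 without CML libraries 2 and 4, −0.10 to 0.09 over single libraries left out) and Adgre5 (−0.22 with voom, −0.06 without the filter, −0.35 without CML libraries 2 and 4, −0.29 to −0.0041 without CML library 2, CTRL library 1 or CTRL library 6, the latter −0.029). The cause of these differences was not tested. Leaving out libraries lowers the number of samples, and at 12 to 53 counts per library Fcgr1 is limited by depth.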
